A study of Rattus norvegicus with 25 samples.

Results

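A set of 10 collagen genes was described: Col1a1, Col1a2, Col3a1, Col5a1, Col5a2, Col6a1, Col6a2, Col6a3, Col12a1 and Col14a1, chosen by symbol from the fibrillar, fibril-associated and microfibrillar collagens of soft and hard tissue. Of these 10 genes, 7 had an entry among the 16881 distinct gene symbols of the count files, 1 entry each, and all 7 passed the filter on low counts that left 11492 genes for testing. Col6a1, Col6a3 and Col12a1 were not analysed here. RNA came from the tooth and periodontal ligament of Sprague–Dawley rats whose upper first molar had been pulled, left to dry and put back in its socket. The delayed group (DR) had a drying time of 60 min and the immediate group (IR) of 5 min, and each was sampled 7 days or 3 days after replantation. DR day 7, IR day 7, DR day 3 and IR day 3 had 6 libraries each, and NT, a sample labelled as control for both treatment and time, had 1 library. Every library carried the age of postnatal day 21, with no word on whether that was the age at replantation or at sampling, so the replanted groups and NT can differ in age. No genetic change or drug was given for any group, and the labels do not say whether the 6 libraries of a group came from separate animals. The p-values therefore measure the spread between libraries, which may be technical.

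Collagens are triple-helical proteins secreted by fibroblasts, osteoblasts, cementoblasts and odontoblasts. Type I collagen, built from the products of Col1a1 and Col1a2, is the main protein of bone, dentine, cementum and the ligament's fibres, and type III collagen, from Col3a1, is mixed into the fibrils of soft and healing tissue. Type V collagen, from Col5a1 and Col5a2, starts fibrils and limits their width, type VI collagen, to which Col6a2 contributes a chain, forms beaded microfibrils around cells, and type XIV collagen, from Col14a1, sits on the fibril surface. In the periodontal ligament, bundles of type I fibrils with type III collagen run into bone on one side and cementum on the other.

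Upstream sequences are shown for the 3 measured members that had a promoter entry, a chain of type I collagen and 2 chains of type V collagen. Levels of these 3 varied together across the replanted libraries (r = 0.971 for Col1a2 and Col5a2, 0.939 for Col5a1 and Col5a2, 0.899 for Col1a2 and Col5a1, n = 24). Without the 6 day 3 libraries called gland-rich below, the same pairs had r = 0.757, 0.705 and 0.441 (n = 18). The sequences come from RefSeq (build GRCr8) and read 5′ to 3′ on the gene's strand. Capitals mark matches on either strand to 3 motifs, and no matches overlap in these windows. The first motif is CCAAT, written ATTGG where it lies on the other strand. The second is TATAAA. The third is GGGCGG. For Col1a2, at chr4:33518307-33518406 on the plus strand, a stretch of 100 bases is shown, with ATTGG starting 221 bases and TATAAA 170 bases before the annotated start. For Col5a1, at chr3:31606630-31606879 on the plus strand, the 250 bases before the start hold GGGCGG 127 bases before it. For Col5a2, at chr9:55090152-55090401 on the minus strand, the 250 bases hold no match.
Col1a2: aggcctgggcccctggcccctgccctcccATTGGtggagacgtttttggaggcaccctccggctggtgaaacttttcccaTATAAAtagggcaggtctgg
Col5a1: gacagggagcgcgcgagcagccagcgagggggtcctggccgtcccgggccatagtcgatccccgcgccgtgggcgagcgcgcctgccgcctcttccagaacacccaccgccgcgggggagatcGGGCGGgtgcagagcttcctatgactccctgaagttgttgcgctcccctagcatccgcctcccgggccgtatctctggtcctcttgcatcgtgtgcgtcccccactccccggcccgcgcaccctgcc
Col5a2: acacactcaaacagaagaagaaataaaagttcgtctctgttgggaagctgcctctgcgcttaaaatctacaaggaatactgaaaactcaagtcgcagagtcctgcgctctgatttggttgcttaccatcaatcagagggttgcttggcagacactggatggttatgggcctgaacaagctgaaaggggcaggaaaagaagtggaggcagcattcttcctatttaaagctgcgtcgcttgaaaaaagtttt
Of 33469 promoters of the same table, 34.0% held CCAAT, 12.9% TATAAA and 30.5% GGGCGG on either strand in the 250 bases before the start. The GC content of those 250 bases was 58.4% for Col1a2, 71.6% for Col5a1 and 44.8% for Col5a2. A match is a description of letters and not of a bound site.

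Depth was 5005071 to 8740261 counts per replanted library and 8494013 counts for NT. Ribosomal RNA entries took 9.81% to 34.1% of each replanted library and 2.93% of NT. Markers of glands that lie near the upper jaw were unequal between libraries. A list of 6 lipid-secreting gland genes took 1.60% to 2.65% of counts in DR day 3 replicates 1, 2 and 3 and IR day 3 replicate 6, and at most 0.548% elsewhere, with Awat2 of that list at 0 in every day 3 library. A list of 7 nasal gland genes took 23.2% and 27.4% of counts in IR day 3 replicates 3 and 4, at most 8.42% in any other replanted library and 2.84% in NT, with Muc19 of that list at most 1.15 CPM. These 6 libraries, over 1% on the lipid list or over 10% on the nasal list, are called gland-rich below. They are also the 6 libraries with the lowest mean level of the 7 collagens, and results are given with and without them. Other day 3 libraries passed some of them on the sum of both lists, so the fits were also run without the 6 day 3 libraries of highest sum (IR day 3 replicates 3 to 6, DR day 3 replicates 2 and 4). The part of gland tissue in the results was not tested. Among markers of the labelled tissue, Bglap, Ibsp and Spp1 (bone matrix) and Dcn and Lum (fibrous matrix) were present in every library, Sp7 was at most 0.170 CPM, and Dspp (dentine) was at most 39.2 CPM in replanted libraries and 1066 CPM in NT. In bulk tissue, fewer collagen-producing cells and less collagen RNA per cell cannot be told apart.

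The 7 measured collagens made up a large share of the RNA. Together they took 5.42%, 6.77% and 7.92% of counts (lowest, median and highest of 6 libraries) in DR at day 7 and 5.41%, 7.33% and 13.04% in IR at day 7. They took 0.325%, 2.50% and 4.16% in DR at day 3, 0.0896%, 2.02% and 5.54% in IR at day 3, and 19.0% in NT. The gland-rich libraries had 0.0896% to 1.41% and the other 6 day 3 libraries 2.86% to 5.54%, so the day 3 groups each split into a low and a higher set, and the higher set just reached the lowest day 7 value. Col1a1 alone took 12.5% of the counts in NT.

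Levels are given as CPM, counts of 3′-end reads relative to the scaled library total, which do not grow with transcript length. Col1a1, the α1 chain of type I collagen, had 28939, 40199 and 45970.4 CPM (lowest, median, highest) in DR at day 7 and 30288, 41259 and 84669 CPM in IR at day 7. It had 1585, 12564 and 25552 CPM in DR at day 3, 363 (IR day 3 replicate 6), 12928 and 34591 CPM in IR at day 3, and 125563 CPM in NT. All 6 DR day 7 libraries lay above all 6 DR day 3 libraries, whereas the top IR day 3 library lay above the lowest IR day 7 library, and NT was above all 24 replanted libraries.

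Col1a2, the α2 chain of type I collagen, had 14844, 21596 and 23707 CPM in DR at day 7 and 15113, 19663 and 39383 CPM in IR at day 7. Day 3 gave 1088, 6478 and 14689 CPM in DR and 390.4, 7058 and 13893 CPM in IR, and NT gave 43383 CPM. On this scaled measure every one of the 12 day 7 libraries was above every one of the 12 day 3 libraries, although the gap between 14844 and 14689 CPM was narrow. As an unscaled share of counts the days overlapped, with 1.59% in IR day 7 replicate 5 and 1.62% in IR day 3 replicate 1. In scaled CPM, Col1a2 was the only member whose days did not overlap over both drying times, and 0.0783% of the tested genes were higher at day 7 in that way.

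Col3a1, the chain of type III collagen, had 3321, 4621 and 6188 CPM in DR at day 7 and 4015, 6250.3 and 9378 CPM in IR at day 7. It had 455, 2304 and 5828 CPM in DR at day 3, 223, 964 and 5593 CPM in IR at day 3, and 18114 CPM in NT. The 6 gland-rich libraries had at most 671 CPM and the other day 3 libraries at least 1257 CPM, so the day 3 range ran from far below day 7 to well inside it.

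Col5a2, the α2 chain of type V collagen, had 643, 886 and 1129 CPM in DR at day 7 and 744, 955 and 1688 CPM in IR at day 7. Day 3 gave 65.7, 324 and 830.5 CPM in DR and 16.9, 294 and 1117 CPM in IR, and NT gave 2043 CPM. Its partner chain Col5a1 was sparse, with 8.95, 19.0 and 40.2 CPM in DR at day 7, 10.3, 17.1 and 34.2 CPM in IR at day 7, 0.510, 6.97 and 33.3 CPM in DR at day 3, and 0.402, 6.13 and 32.2 CPM in IR at day 3. The days overlapped for both genes. NT had 15.2 CPM of Col5a1, inside the replanted range, and 12 of the 24 replanted libraries exceeded it, unlike for Col5a2, where none did.

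Col6a2, a chain of the type VI microfibril, had 413, 475 and 624.7 CPM in DR at day 7 and 463, 558 and 775 CPM in IR at day 7. It had 59.7, 171 and 446 CPM in DR at day 3, 37.6, 104 and 1073 CPM in IR at day 3, and 869.9 CPM in NT. The highest value among the replanted libraries belonged to a day 3 library, IR day 3 replicate 2, and it was the single one above NT.

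Col14a1, the fibril-surface collagen, had the narrowest range, with 18.1, 35.1 and 44.1 CPM in DR at day 7 and 29.7, 50.7 and 88.1 CPM in IR at day 7. It had 14.3, 25.6 and 65.4 CPM in DR at day 3, 12.1, 17.45 and 46.6 CPM in IR at day 3, and 68.9 CPM in NT. Lowest and highest replanted libraries differed 7.15-fold for Col14a1 and 233-fold for Col1a1 on the log2 CPM scale with a prior count of 2. Groups overlapped at both days, and 2 IR day 7 libraries were above NT.

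**Figure D1:**
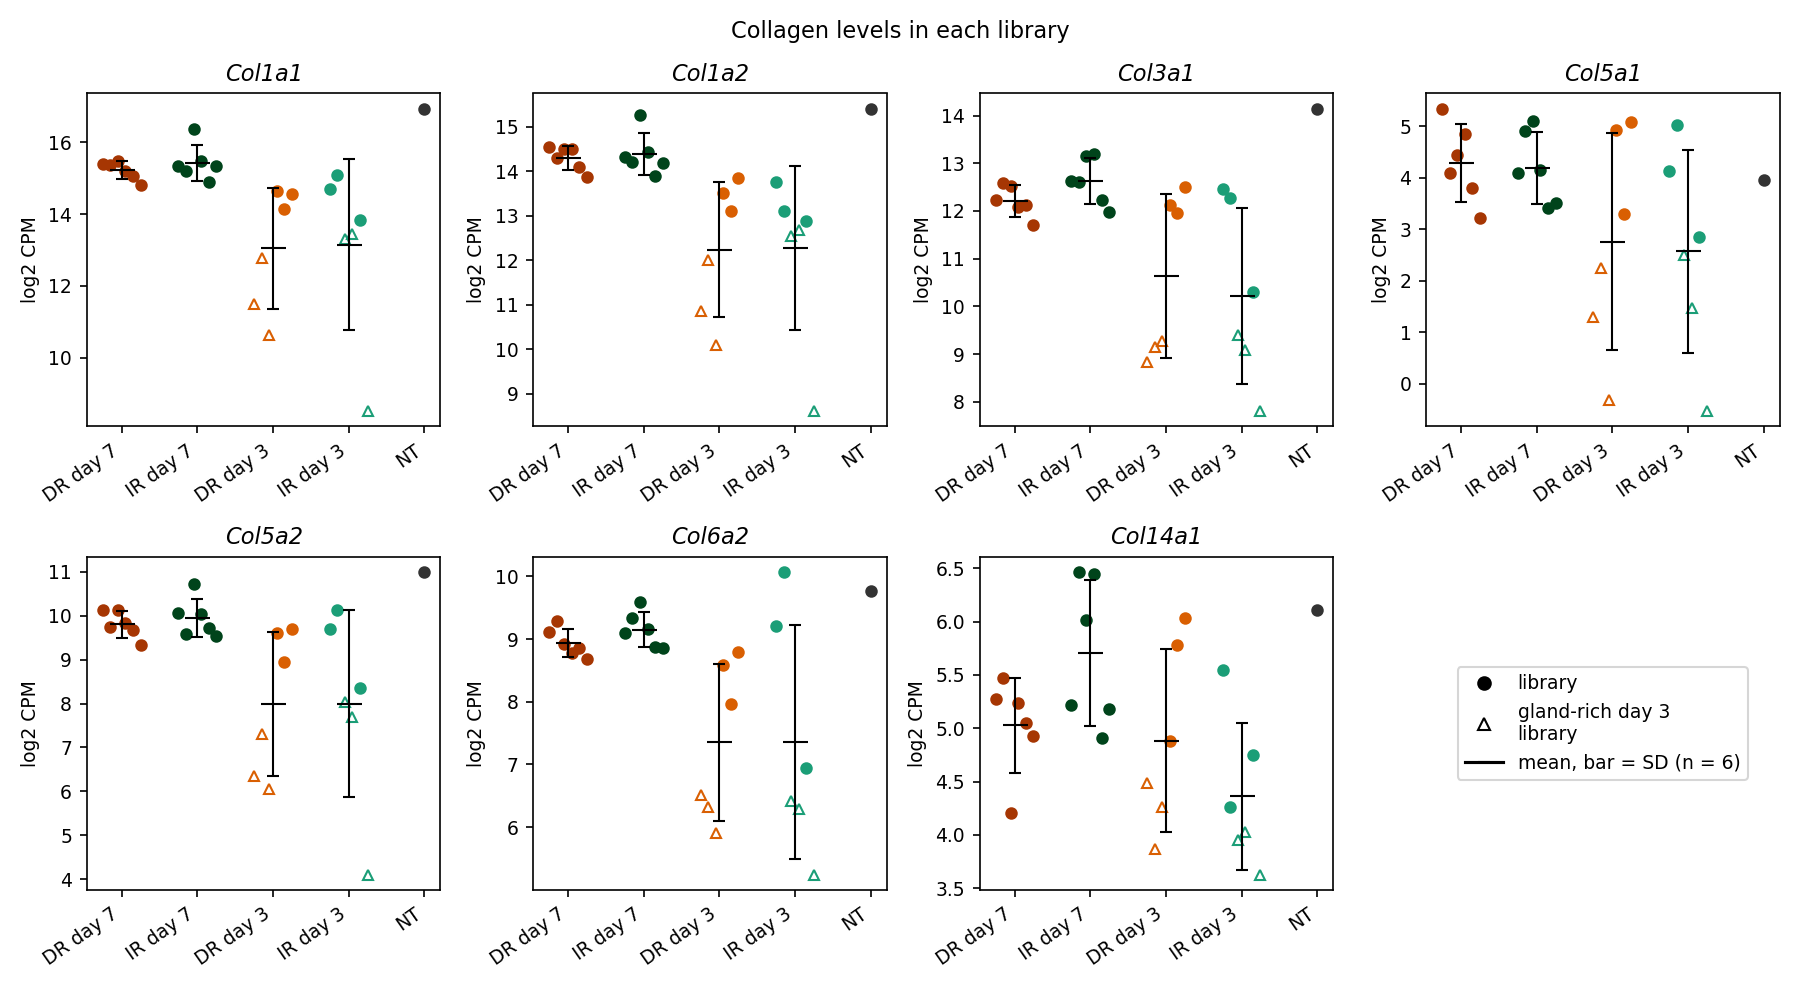
Levels of the 7 measured collagens as log2 CPM (vertical axis of each panel) for DR day 7, IR day 7, DR day 3, IR day 3 and NT, with 1 point per library, the mean as a horizontal line and the SD as a bar (n = 6 per replanted group). Day 7 libraries lie close together (Col1a1 SD 0.25 in DR and 0.50 in IR), while day 3 libraries spread (SD 1.70 in DR and 2.38 in IR). The gland-rich libraries, drawn as open triangles, lie below all others except in the Col14a1 panel. There, DR day 3 replicate 1 (4.49), which is gland-rich, is above DR day 7 replicate 3 (4.20).

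Day 7 was first set against day 3 over both drying times, the comparison with the most libraries. Col1a1 averaged 15.22 ± 0.25 log2 CPM in DR at day 7 and 15.43 ± 0.50 in IR at day 7, against 13.04 ± 1.70 in DR at day 3 and 13.15 ± 2.38 in IR at day 3 (SD, n = 6 each). Its fitted log2 fold change was 1.54 (SE 0.471, adjusted p = 0.0279, edgeR quasi-likelihood test), and Col1a2 had 1.59 (SE 0.408, adjusted p = 0.0131), so both chains of type I collagen rose. With the replicate number as a block, Col1a2 stayed called (1.60, 4.06% of genes called higher) and Col1a1 did not (1.58, adjusted p = 0.0693). These were the 2 of 7 members called at an adjusted p under 0.05, while 6.94% of the 11492 tested genes were called higher at day 7 and 18.8% in either direction. Simple differences of mean log2 CPM were larger, 2.23 for Col1a1 and 2.09 for Col1a2, and the count model compares mean counts, to which the lowest libraries add little.

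The other members had positive but uncalled values. Col3a1 had a log2 fold change of 1.23 (adjusted p = 0.0737), Col5a2 of 1.18 (adjusted p = 0.0722), Col6a2 of 0.998 (adjusted p = 0.110), Col5a1 of 0.79 (adjusted p = 0.306) and Col14a1 of 0.66 (adjusted p = 0.0903). The median of the 7 members was 1.18, beside a median of -0.06 over all tested genes. Of the 7 members, 6 had an unadjusted p under 0.05, as did 35.6% of tested genes.

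Marker lists of other cells moved in the same comparison, and their part in the result was not tested. Of 4 tested lipid gland genes, 3 were called lower at day 7 (median log2 fold change -5.97), and of 9 skeletal muscle genes 3 were called lower (median -1.93). Bone-forming cell markers, with 1 of 5 called higher and a median of 0.81, took 0.740% to 1.24% of counts at day 7, against 0.00825% to 0.243% in the gland-rich and 0.539% to 1.43% in the other day 3 libraries. Leukocyte markers, with none of 5 called and a median of 1.18, took 0.309% to 1.14% at day 7, against 0.00827% to 0.311% in the gland-rich and 0.359% to 1.12% in the other day 3 libraries. Fibroblast markers, with none of 6 called and a median of 0.53, took 0.160% to 0.414% at day 7, against 0.0245% to 0.165% and 0.128% to 0.502% in those day 3 sets. The gland-rich libraries were below every other library on the bone-forming list, while on the fibroblast and leukocyte lists their highest values overlapped the lowest of the others.

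These calls depended on which day 3 libraries were in the fit. Without the 6 gland-rich libraries, Col1a2 stayed called (log2 fold change 1.004, SE 0.193, adjusted p = 0.0298) and Col1a1 did not pass (0.86, SE 0.201, adjusted p = 0.0764), while 0.33% of genes were called higher. In that fit Col3a1 had 0.42, Col5a2 0.45, Col6a2 0.25, Col14a1 0.19 and Col5a1 -0.01, and the members' median was 0.42. Without the 6 day 3 libraries of highest summed gland share, no member was called, with Col1a2 at 1.29 (SE 0.448, adjusted p = 0.101) and Col1a1 at 1.16 (SE 0.464, adjusted p = 0.148), and 1.4% of genes were called higher. Groups that do not overlap stay so when libraries are left out. The separation of Col1a2 in scaled CPM over both drying times therefore had to remain without the gland-rich libraries, where 0.104% of genes were higher at day 7 without overlap. In that reduced set no further member became separated within IR (Col1a2, background 1.24%) or within DR (Col1a1 and Col1a2, background 3.13%). Leaving out single libraries also moved the count: without DR day 3 replicate 6 or without IR day 3 replicate 1, 5 members were called, Col3a1, Col5a2 and Col14a1 joining Col1a1 and Col1a2, and 9.07% and 10.6% of all genes were called higher in these fits. Without DR day 3 replicate 4, 3 were called, with Col5a2 added, beside 9.41% of genes. Without IR day 3 replicate 2 it was again 5, with Col6a2 (log2 fold change 1.43) in place of Col14a1, beside 10.3% of genes.

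**Figure D2:**
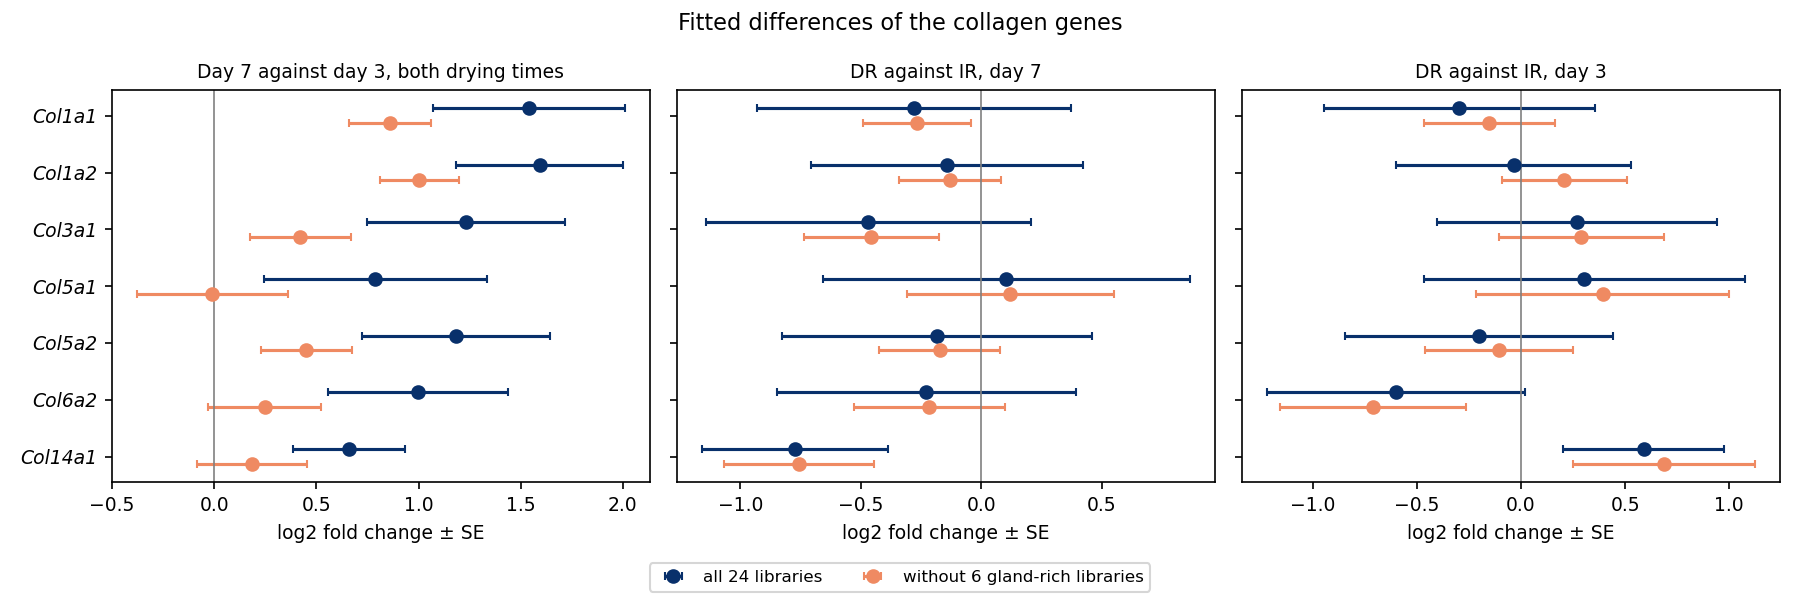
Fitted log2 fold changes (horizontal axes, points with SE bars) of the 7 collagens for day 7 against day 3 over both drying times, DR against IR at day 7 and DR against IR at day 3, from all 24 libraries (dark) and without the 6 gland-rich day 3 libraries (orange). Every member lies right of 0 in the first panel with all libraries, where without the gland-rich ones Col5a1 sits at -0.01.

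Within each drying time no member was called. In DR, day 7 against day 3 gave log2 fold changes of 1.55 (SE 0.666) for Col1a1, 1.54 (SE 0.577) for Col1a2, 1.19 for Col5a2, 1.18 for Col6a2, 0.86 for Col3a1, 0.69 for Col5a1 and -0.02 for Col14a1. The edgeR test called 0.0087% of all genes there, and 2 members, Col1a1 and Col1a2, had an unadjusted p under 0.05, as had 22.5% of genes. Both of these members had all DR day 7 libraries above all DR day 3 libraries, as had 1.91% of genes, while no member had the reverse order, which 1.11% of genes had. Without IR day 3 replicate 6, which enters the DR comparison through the shared spread and scaling, Col1a1 (adjusted p = 0.0496) and Col1a2 (adjusted p = 0.0294) were called in DR, in a fit that called 3.41% of genes higher and 12.2% in either direction. DESeq2 called 1 member, Col1a2, beside 3.01% of genes higher and 9.26% in either direction, and limma-voom called no member and 0.0087% of genes.

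In IR, the same comparison gave 1.65 (SE 0.578) for Col1a2, 1.60 (SE 0.690) for Col3a1, 1.53 (SE 0.666) for Col1a1, 1.34 (SE 0.392) for Col14a1, 1.18 for Col5a2, 0.89 for Col5a1 and 0.81 for Col6a2. The edgeR test called 0.139% of all genes, and 4 members (Col14a1, Col1a2, Col3a1 and Col1a1) had an unadjusted p under 0.05, as had 20.4% of genes. In scaled CPM, Col1a2 alone did not overlap between IR day 7 and IR day 3, with day 7 higher, as did 0.557% of genes, and no member was lower at day 7 in that way, as were 0.6% of genes. Its unscaled share of counts did overlap, with 1.59% in IR day 7 replicate 5 and 1.62% in IR day 3 replicate 1. Col14a1 had the smallest adjusted p of the members (0.116) and passed without IR day 3 replicate 1 (log2 fold change 1.69, adjusted p = 0.0263), in a fit that called 1.71% of genes higher and 3.46% in either direction. DESeq2 called Col14a1 and Col1a2, beside 2.17% of genes higher and 6.51% in either direction. The DR and IR values for the day difference share no libraries.

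Col14a1 was the member whose day difference stood farthest apart between drying times, -0.02 in DR and 1.34 in IR. The interaction, the day difference in DR minus that in IR, was -1.36 (SE 0.548, unadjusted p = 0.0208, adjusted p = 0.9999), which did not pass the test. No member was called for the interaction, nor was any gene (0.0%), while 3.01% of genes had an unadjusted p under 0.05 DESeq2 called 11 genes and limma-voom with quality weights 771 (6.71%), with no member among either.

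The drying time itself made no called difference to any member. At day 7, DR against IR, edgeR called 0 of 7 members and 0.0% of genes, with 1.79% of genes at an unadjusted p under 0.05 and 3 genes called by DESeq2. Col1a1 had a log2 fold change of -0.28 (95% interval -1.63 to 1.07), Col1a2 -0.14 (-1.31 to 1.02), Col3a1 -0.47 (-1.87 to 0.93), Col5a1 0.10 (-1.48 to 1.68), Col5a2 -0.18 (-1.52 to 1.15) and Col6a2 -0.23 (-1.51 to 1.06). Col14a1 came closest, at -0.77 (-1.58 to 0.03, unadjusted p = 0.0580, adjusted p = 0.99995). In the edgeR fit without the gland-rich day 3 libraries it had -0.76 (SE 0.310, unadjusted p = 0.0259, adjusted p = 0.99969). There, 2.68% of genes had an unadjusted p under 0.05 and none was called (0.0%). Its 6 DR libraries overlapped 3 of the IR libraries, while the other 3 IR libraries (64.5, 86.9 and 88.1 CPM) were above every DR library. The intervals leave room for differences of over 1 on the log2 scale in either direction for most members, so equal levels were not shown. Their width rests on a spread shared with the day 3 libraries. SEs ran from 0.387 (Col14a1) to 0.763 (Col5a1) with all libraries. Without the 6 gland-rich day 3 libraries they ran from 0.213 (Col1a2) to 0.428 (Col5a1), with Col1a1 at -0.27 (SE 0.223), so that fit leaves less room.

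At day 3, DR against IR, 0 of 7 members and 0.0% of genes were called by edgeR, 2.72% of genes had an unadjusted p under 0.05, and DESeq2 called none. Without IR day 3 replicate 6, edgeR called 576 genes (526 higher in DR, 50 lower, 4.95% in all) and again no member, and limma-voom with quality weights called 1533 genes (13.3%) and no member. The log2 fold changes were 0.59 (95% interval -0.21 to 1.39) for Col14a1, 0.30 (-1.29 to 1.90) for Col5a1, 0.27 (-1.13 to 1.66) for Col3a1, -0.04 (-1.20 to 1.13) for Col1a2, -0.20 (-1.53 to 1.13) for Col5a2, -0.30 (-1.65 to 1.05) for Col1a1 and -0.60 (-1.89 to 0.69) for Col6a2. The groups overlapped for every member at both days, whereas 0.0348% of genes at day 7 and 0.0% at day 3 were higher in DR without overlap, and 0.0696% at day 7 and 0.0174% at day 3 were lower. Without the gland-rich libraries, no member was called at day 3 and none had an unadjusted p under 0.05 (background 5.19%) or groups of 3 libraries that did not overlap (background 2.98% higher in DR, 2.56% lower). Without the 6 day 3 libraries of highest summed gland share, which leaves 4 DR and 2 IR libraries at day 3, Col6a2 was called lower in DR (-1.94, adjusted p = 0.0411), where 1.5% of genes were called lower.

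With a single NT library, differences from NT carry no p and are descriptions. The 4 members Col1a1, Col1a2, Col3a1 and Col5a2 were below NT in all 24 replanted libraries, as were 9.13% of tested genes. Ratios of mean CPM were taken with 5 CPM added to both. Col1a1 had a log2 ratio to NT of -1.70 in DR at day 7 and -1.42 in IR at day 7, and at day 3 of -3.24 in DR and -2.95 in IR. Col3a1 had -1.91 in DR at day 7, -1.45 in IR at day 7, -2.77 in DR at day 3 and -3.04 in IR at day 3, so these 2 genes lay farthest below NT in each group. Col5a1 was at 0.39, 0.30, -0.14 and -0.36 in the same groups, the nearest to NT of the 7 apart from Col14a1 in IR at day 7 (-0.25), and NT itself had 129 Col5a1 counts (exact Poisson 95% interval 108 to 153, counting error only).

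Members at least 2-fold below NT numbered 4 in DR at day 7 (background 3.56%), 2 in IR at day 7 (2.85%), 5 in DR at day 3 (6.2%) and 6 in IR at day 3 (4.85%). The medians of the members' log2 ratios were -1.09 in DR at day 7, -0.95 in IR at day 7, -2.34 in DR at day 3 and -2.14 in IR at day 3, beside medians over all tested genes of 0.04, 0.03, 0.09 and 0.10. Age, drying, extraction and the single NT library cannot be told apart in this comparison.

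**Figure D3:**
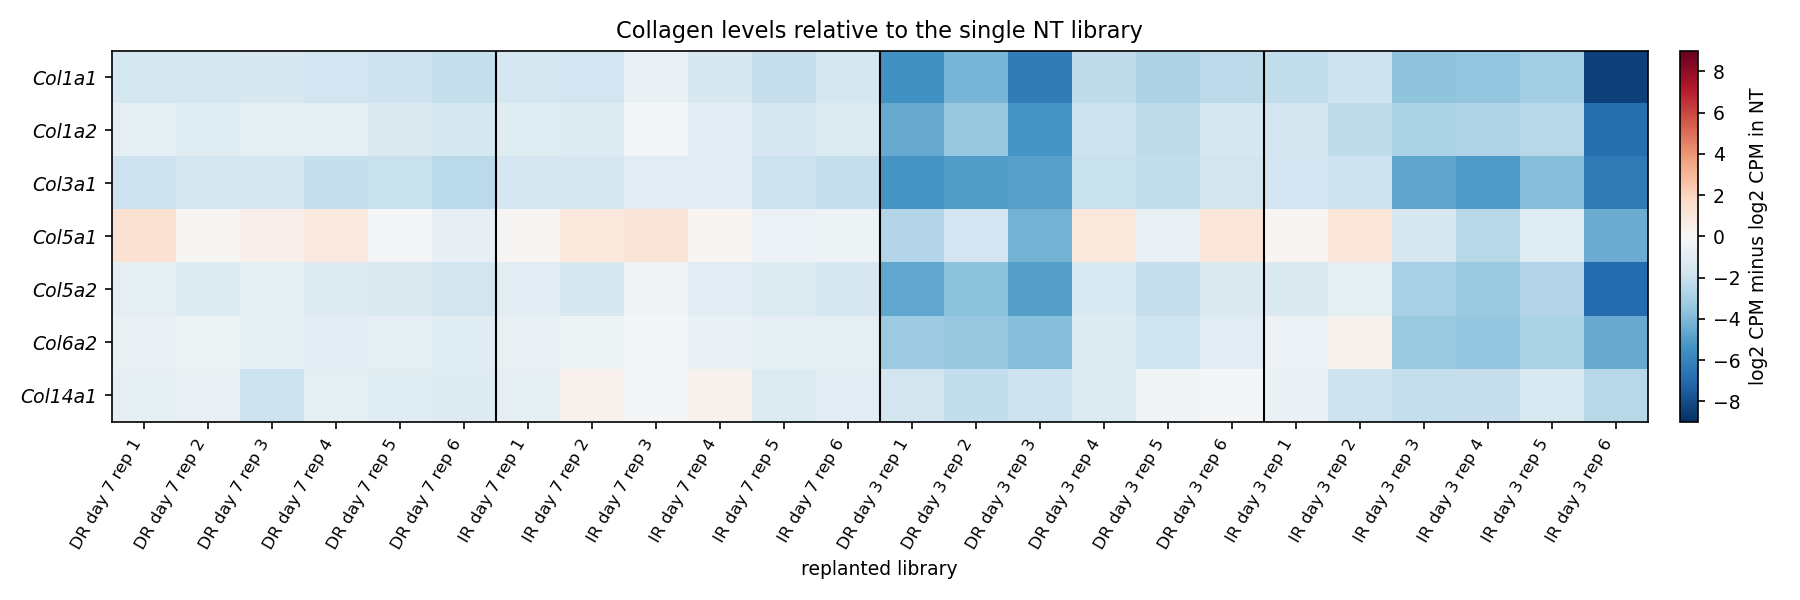
Difference in log2 CPM from the single NT library (colour, blue below NT and red above) for each of the 7 collagens (rows) in each replanted library (columns, DR day 7, IR day 7, DR day 3 and IR day 3 divided by black lines). The rows of Col1a1, Col1a2, Col3a1 and Col5a2 are blue in all 24 columns, and Col5a1 exceeds NT in 12.

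Ratios of 2 members within a library do not depend on scaling. The ratio of Col3a1 to Col1a1 counts was 0.111, 0.122 and 0.146 (lowest, median, highest) in DR at day 7, 0.0974, 0.156 and 0.206 in IR at day 7, 0.0811, 0.197 and 0.388 in DR at day 3, 0.0483, 0.114 and 0.614 in IR at day 3, and 0.144 in NT. NT lay inside the range of each group, and the day 3 libraries reached both extremes, 0.614 in IR day 3 replicate 6 and 0.0483 in IR day 3 replicate 4, both gland-rich. In all, 12 tests were made over 3 ratios, by a two-sided exact permutation test of mean log2 ratios with Benjamini-Hochberg adjustment over the 12.

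No test of the Col3a1 to Col1a1 ratio passed. The mean log2 ratio differed by -0.61 between DR day 7 and DR day 3 (exact p = 0.0758, adjusted p = 0.303) and by 0.13 between IR day 7 and IR day 3 (exact p = 0.838, adjusted p = 0.838). DR against IR gave -0.21 at day 7 (exact p = 0.249, adjusted p = 0.532) and 0.53 at day 3 (exact p = 0.409, adjusted p = 0.614). For DR, the unadjusted exact p was 0.0119 without the gland-rich libraries, the smallest that 6 against 3 libraries can give, where the 3 remaining DR day 3 libraries (0.175, 0.220 and 0.240) were all above the DR day 7 range. Without DR day 3 replicate 2, which had the lowest ratio of its group, the exact p was 0.00216. The IR difference changed sign without IR day 3 replicate 3 or 4 (range -0.16 to 0.58 over single libraries left out).

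The ratio of Col14a1 to Col1a1 had the clearest difference. It was 0.000395, 0.000974 and 0.00104 in DR at day 7 and 0.00114, 0.00285 and 0.0119 in DR at day 3, so all 6 DR day 7 libraries were below all 6 DR day 3 libraries. Mean log2 CPM in DR at day 7 and day 3 was 5.03 and 4.88 for Col14a1, and 15.22 and 13.04 for Col1a1. With all libraries the ratio thus fell through the rise of Col1a1 and not through a fall of Col14a1. The 3 DR day 3 libraries that were not gland-rich averaged 5.57 for Col14a1 and 14.45 for Col1a1. Against these, Col14a1 was lower at day 7 (fitted log2 fold change -0.54, SE 0.372) and Col1a1 higher (0.80, SE 0.283), neither called. The mean log2 ratio differed by -2.04 (exact p = 0.00216, the smallest that 6 against 6 libraries can give, adjusted p = 0.0260), and by -1.31 without the gland-rich libraries (unadjusted exact p = 0.0119). With same-numbered libraries paired, the exact p was 0.0313, the smallest that 6 pairs can give, and the adjusted p over the 12 paired tests was 0.188. A ratio at that floor can pass the adjustment only if most of the 12 tests reach it, so the paired test could not decide. Deviations of same-numbered DR day 7 and DR day 3 libraries from their group means correlated at -0.493 to -0.060, so the numbers were not borne out as pairs here. In IR the ratios were 0.000762, 0.000937 and 0.00235 at day 7 and 0.000545, 0.00162 and 0.0332 at day 3, with a difference of -0.93 (exact p = 0.368, adjusted p = 0.614). DR against IR differed by -0.47 at day 7 (adjusted p = 0.532) and 0.64 at day 3 (adjusted p = 0.665), and whether the DR and IR day differences differ from each other was not tested for ratios.

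Col5a2 to Col1a1 varied least of the tested ratios, with 0.0201, 0.0240 and 0.0261 in DR at day 7, 0.0181, 0.0218 and 0.0281 in IR at day 7, 0.0227, 0.0293 and 0.0414 in DR at day 3, and 0.0185, 0.0285 and 0.0465 in IR at day 3. The day difference was -0.36 in DR (exact p = 0.0195, adjusted p = 0.117) and -0.33 in IR (exact p = 0.156, adjusted p = 0.468), and DR against IR gave 0.07 at day 7 (adjusted p = 0.665) and 0.10 at day 3 (adjusted p = 0.741). Col1a2 to Col1a1, described with no test, lay between 0.452 and 0.686 in 22 of the 24 replanted libraries. IR day 3 replicate 6, at 1.07, and IR day 3 replicate 2, at 0.256, stood outside, and NT was at 0.346.

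**Figure D4:**
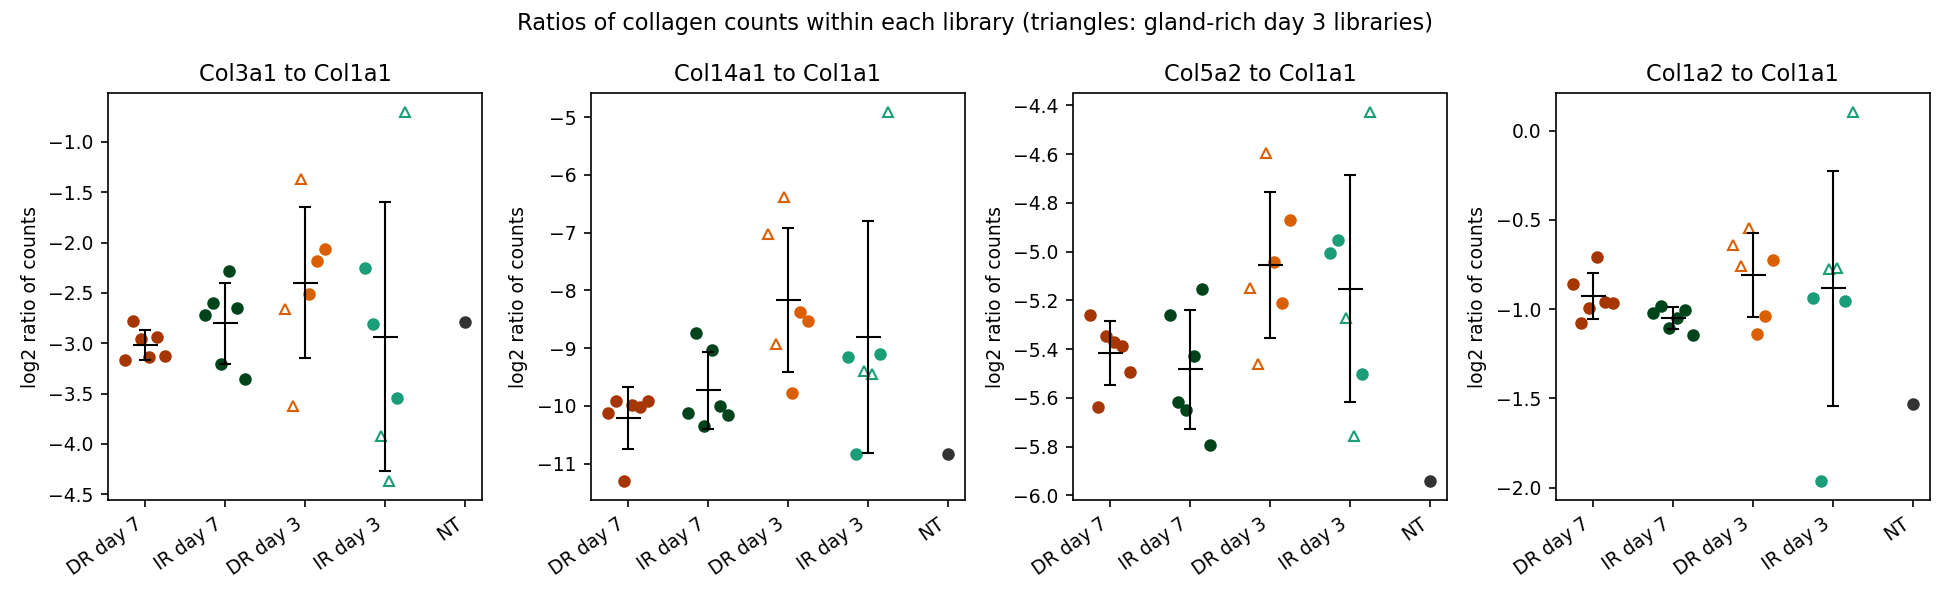
Log2 ratios of Col3a1, Col14a1, Col5a2 and Col1a2 counts to Col1a1 counts (vertical axes) for DR day 7, IR day 7, DR day 3, IR day 3 and NT, with 1 point per library, means as lines and SD as bars (n = 6). The DR day 7 libraries lie below all DR day 3 libraries for Col14a1, and IR day 3 replicate 6 is the highest point in all 4 panels.

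The members varied together over the replanted libraries, which share depth, scaling and the gland-rich subset. Over 24 libraries the log2 CPM of Col1a1 and Col1a2 had Pearson r = 0.989 (Spearman rho 0.959), Col1a1 and Col5a2 had r = 0.986, and Col3a1 and Col6a2 had r = 0.964. Col14a1 was the loosest, at r = 0.63 to 0.78 with the other members. Over the 18 libraries that were not gland-rich, Col1a1 and Col1a2 kept r = 0.900, while Col14a1 had r = 0.10 to 0.49 with the others. Pairs without Col14a1 ran from r = 0.441 (Col1a2 and Col5a1) to that 0.900, against 0.867 to 0.989 over the 24 libraries. These are descriptions with no test.

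By the rule of highest Pearson correlation over the 24 libraries, the genes whose log2 CPM was most like the members' mean were Ppic (r = 0.990), a prolyl isomerase, Col16a1 (0.985), a fibril-associated collagen, C1qtnf6 (0.984), Fkbp10 (0.984), a procollagen chaperone, Bgn (0.983), a small proteoglycan, and Tnn (0.983), a tenascin. Most like Col1a1 alone were Sparc (0.989), a collagen-binding matrix protein, Wif1 (0.982), a Wnt inhibitor, and Col16a1 (0.982). Most like Col3a1 were Col5a3 (0.981), Lum (0.979), a fibril-binding proteoglycan, and C1qtnf6 (0.975). For Col14a1 the nearest were Ecm1 (0.870), Blmh (0.858) and Ppl (0.849), a lower likeness. Spearman rho ran from 0.850 to 0.926 for the genes named for the members' mean, and was 0.953 for Sparc and 0.827 for Wif1. C1qtnf6 and Wif1 had 0 CPM in their lowest replanted library. Likeness without the gland-rich libraries was not examined.

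Other genes of the collagen pathway were read from lists of symbols in the comparison of day 7 with day 3 over both drying times, beside the 6.94% of genes called higher and the 11.8% called lower. Of 10 tested processing and cross-linking genes, 4 rose: Loxl3 (log2 fold change 0.62, SE 0.110, adjusted p = 0.00423) and Loxl1 (0.90, SE 0.252, adjusted p = 0.0184), enzymes of the lysyl oxidase family, Adamts2 (1.15, SE 0.249, adjusted p = 0.00794), which removes the N-propeptide of procollagen, and Bmp1 (1.09, SE 0.371, adjusted p = 0.0431), which removes the C-propeptide. None of the 10 fell, and their median was 0.96. Of 13 fibril-binding matrix genes, 2 rose, Bgn (1.09, adjusted p = 0.0306) and Sparc (1.14, adjusted p = 0.0403), none fell, and the median was 0.94.

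No gene for the making of procollagen passed, of 13 tested, with a median of 0.56 and the smallest p for P3h3 (0.75, adjusted p = 0.0532), a prolyl hydroxylase family member, and Fkbp10 (1.12, adjusted p = 0.0664). Itga10, a collagen-binding integrin chain, was the 1 of 5 receptor genes that rose (1.17, adjusted p = 0.0346), and the list's median was 0.29. No degradation gene of 8 passed, with a median of 0.93, Mmp14, a membrane collagenase, at 1.27 (adjusted p = 0.0636) and the inhibitor Timp2 at 0.92 (adjusted p = 0.0812). Without the gland-rich libraries no gene of these 5 lists was called, and the medians were 0.28 for processing, 0.40 for fibril binding, -0.12 for procollagen making, 0.01 for receptors and 0.18 for degradation. For DR against IR, no gene of these lists was called at day 7 or day 3 (background 0.0% at each).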

How the data were processed

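Libraries were made from 500 ng of total RNA with a 3′-end kit, per the labels' protocols. Each deposited file holds raw read counts, whole numbers with 1 value per gene entry. The tools Bowtie2 and edgeR and the builds mm10 and rn6 are named in the submitters' processing notes, without their roles. How reads were counted, on which annotation and strand, is not given in the sources used here, so reads of overlapping or near-identical genes cannot be told apart. Of 17048 entries, 16881 distinct symbols were kept, taking the entry of highest total for a repeated symbol.

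The 24 replanted libraries were fitted with edgeR 4.0.16 in R 4.3.3 (TMM scaling, filterByExpr, robust quasi-likelihood, 4 group means, 20 residual degrees of freedom), with adjusted p by Benjamini-Hochberg over 11492 genes and a threshold of 0.05. The fit was tested on simulated data. Log2 CPM used TMM over all 25 libraries and a prior count of 2. Alternatives were RLE scaling, DESeq2 1.42.0, limma-voom (limma 3.58.1) with and without quality weights, no filter, no ribosomal RNA entries, fits of 1 day or 1 drying time, 5 counts added or medians for ratios, a replicate block, and each library left out. Fits without 6 day 3 libraries were added after the data had been seen. Of 20 planned ratio tests, 12 were made, since Col6a1 and Col12a1 were not analysed here. All members and the genes of highest correlation are named, with up to 4 called genes per pathway list or the 2 of smallest p. The members and lists were chosen with earlier results of these data known.

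Replicate numbers 1 to 6 came from the labels. Names of the deposited day 7 files use another numbering. Deviations of same-numbered DR and IR libraries from their group means correlated at 0.213 to 0.720 at day 7, so the numbers were read as pairs there, and at -0.415 to 0.215 at day 3, where they were not. The replicate block on the day 7 libraries called 0 members, as did the fit without it.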

Additional observations from a re-analysis of the deposited data

Results flagged for a closer look

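Among 44 sets of 6 libraries examined, 4 values stood apart from the rest of their group by Dixon's criterion for 6 samples (0.625), and chance gives about 1 in 20 such sets. IR day 3 replicate 6, a gland-rich library, was low for Col1a1 (8.506 log2 CPM, against 13.32 to 15.08 in the other 5) and for Col1a2 (8.610 log2 CPM, against 12.54 to 13.76). The same library was high for the log2 ratio of Col14a1 to Col1a1 (-4.912, against -10.84 to -9.107). DR day 7 replicate 3 was low for that log2 ratio (-11.31, against -10.12 to -9.909).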

How the results depend on the processing

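Counts of called members, day 7 against day 3, were 2 over both drying times and 0 in DR and in IR. Over both, DESeq2 called 4, limma-voom 5, voom with quality weights 7, the replicate block 1 (Col1a1 lost, 1.58, adjusted p = 0.0693), the fit without gland-rich libraries 1 and without the highest summed gland share 0, and single libraries left out gave 2 to 5. In DR, DESeq2 called 1 (3.01% of genes higher), voom with quality weights 6 (17.0%), and leaving out single libraries 0 to 2 (at most 3.41%). In IR the counts were 2 (2.17%), 7 (20.6%) and 0 to 1 (at most 1.71%). For DR against IR at day 3 the count was 1 without the highest summed share and 0 otherwise, and at day 7 it was 0 under every setting. Under the block the call of Col1a1 was lost, and no other member call. The Col14a1 to Col1a1 ratio in DR did not pass there either, where the paired test could not decide. All genes called over both drying times numbered 2156 (797 higher, 1359 lower), 3039 with DESeq2 (1247, 1792), 2256 with voom (1462, 794), 5790 with quality weights (2940, 2850), 1197 with the block (467, 730), 51 without gland-rich libraries (39, 12) and 411 without the highest sums (170, 241). Quality weights also called 1533 genes for DR against IR at day 3. In IR day 3 these weights were 3.09 and 2.34 for the gland-rich replicates 3 and 4, and 0.144 for the gland-rich replicate 6. Replicates 1, 2 and 5 of that group had 0.275, 0.226 and 1.33. The cause of the differences between settings was not tested.

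Signs that turned belonged to uncalled values. Without gland-rich libraries, Col1a2 in DR against IR at day 3 was 0.21, and day 7 against day 3 was -0.00076 for Col6a2 in IR, -0.15 for Col5a1 in DR and -0.010 for Col5a1 over both. Without the highest sums, DR against IR at day 3 was -0.92 for Col3a1 and -1.07 for Col5a1, and day 7 against day 3 in IR was -0.27 for Col5a1 and -0.49 for Col6a2. For Col5a1 at day 3, DR against IR was -0.046 with voom, -0.20 with quality weights and -0.30 with the block on that day, and for Col6a2 0.34 with quality weights and 0.070 with the block. Day 7 against day 3 in DR for Col14a1 was 0.14 with voom and 0.30 with quality weights, and -0.14 to 0.27 over single libraries left out. Other ranges that crossed 0 were, at day 3 for DR against IR, -0.59 to 0.073 for Col1a1, -0.39 to 0.26 for Col1a2, -0.12 to 0.80 for Col3a1, -0.20 to 1.02 for Col5a1, -0.55 to 0.29 for Col5a2 and -0.93 to 0.25 for Col6a2, and at day 7 -0.22 to 0.089 for Col1a2, -0.17 to 0.32 for Col5a1 and -0.25 to 0.0071 for Col5a2.

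For Col3a1 to Col1a1, day 7 against day 3 in DR was -0.69 by medians (exact p = 0.0455), -0.76 without gland-rich libraries and -0.95 without the highest sums (exact p = 0.00476), with -0.86 to -0.41 over single libraries left out, and in IR -0.27 without the highest sums and -0.16 to 0.58. Day 7 against day 3 in IR for Col14a1 to Col1a1 was 0.26 without the highest sums. Col14a1 to Col1a1, DR against IR at day 7, was 0.058 by medians, and Col5a2 to Col1a1 at day 3 ran from -0.024 to 0.24. With the replicate block the Col3a1 ratio tests stayed uncalled (exact p = 0.156 in DR), and Col14a1 to Col1a1 in DR had an exact p = 0.0313, the smallest that 6 pairs can give (adjusted p = 0.188). Col5a1 was under 1 CPM in 2 gland-rich libraries, with 3 counts in DR day 3 replicate 3 and 2 counts in IR day 3 replicate 6, so its levels there are imprecise.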

Other observations

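Collagens outside the named set were measured too. Of 20 with an entry, 15 passed the low-count filter, 1 rose at day 7 relative to day 3 over both drying times and none fell, with a median log2 fold change of 0.88 beside 6.94% of all genes called higher. The gene that rose was Col11a2, a chain of type XI collagen of cartilage and early fibrils (1.53, SE 0.406, adjusted p = 0.0153), with a mean of 117 CPM in DR day 7, 119 CPM in IR day 7, 32.1 CPM in DR day 3, 52.4 CPM in IR day 3 and 393 CPM in NT. It was not called without the gland-rich libraries (1.30, adjusted p = 0.0893), where the median was 0.33. Col5a3, a further type V chain, averaged 206 CPM in DR day 7, 239 CPM in IR day 7, 88.5 CPM in DR day 3 and 106 CPM in IR day 3, against 109.8 CPM in NT. Col4a1, of the basement membrane, averaged 374 CPM in DR day 7, 476 CPM in IR day 7, 204 CPM in DR day 3 and 219.7 CPM in IR day 3, against 274 CPM in NT. Col5a3 and Col4a1 were picked here after their values had been seen. Both day 7 means of these genes were above the NT value, unlike those of Col1a1, Col1a2 and Col3a1.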
